A study of Mus musculus with 3 samples.

Results

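The 10 genes described here encode proteins that osteoclasts use to fuse, to acidify the bone surface and to digest bone matrix. They are Dcstamp and Ocstamp (fusion), Atp6v0d2, Tcirg1, Clcn7, Ostm1 and Car2 (acid and its counter-ions), Acp5 and Ctsk (secreted enzymes) and Calcr (a receptor of mature osteoclasts). All 10, of 35014 genes named on the array, were found with 13 probes. For 8 genes the probes carry the gene's own symbol, which gave 11 probes. Dcstamp and Ocstamp stand on the array under older symbols and were matched by RefSeq accession. Acp5, Atp6v0d2 and Ostm1 have 2 probes each, and the other 7 genes have 1.

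Osteoclasts arise from cells of the monocyte and macrophage line that fuse into large cells with several nuclei, under the cytokines M-CSF and RANKL. On bone they seal off a compartment and pump protons into it with a vacuolar proton pump (V-ATPase), while a chloride-proton exchanger balances the charge and carbonic anhydrase supplies the protons. The acid dissolves mineral, and cathepsin K then cuts the exposed collagen. In the growing skull, osteoclasts remodel the bone edges beside the sutures.

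The study measured gene expression in posterior frontal sutures, the seams between the frontal bones, of C57BL/6 mice. It used 3 one-colour arrays, 1 for each group. The groups were wild type (Runx2+/+) at postnatal day 5 (P5), wild type at day 7 (P7) and heterozygous Runx2+/- at P7. Runx2 is the transcription factor needed for osteoblast formation. The labels name no Cre line or transgene, do not say what the mutant Runx2 allele lacks, and leave the number of mice behind each array unstated. With 1 array per group there is no replicate check, and no test between groups is given.

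Values are processed signals, which are intensities on a linear scale after the scanner software's background correction, with the software's own error after ±. That error covers the spot and its background on 1 array, not differences between mice. Scaled values are log2 signals minus the 75th percentile, on that array, of the 15853 probes well above background on all 3 arrays. That percentile was 491 for P5, 224.5 for P7 wild type and 1294 for Runx2+/-, which is 5.76 times the P7 wild-type value. The share of probes well above background was 40.1%, 29.2% and 47.3% in the same order. The lowest signal counted as well above background was 12.0, 14.1 and 13.1, so a dim gene could be followed further down on the Runx2+/- array after scaling. Spots printed repeatedly on an array gave an SD of 0.24 log2 for an age difference and 0.21 for a genotype difference.

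The array reads each gene through a 60-base stretch of its transcript. Shown here are the stretches behind the largest genotype differences, and those of Ctsk and Tcirg1, in transcript orientation with their mm9 positions. The Acp5 probes overlap by 45 of their 60 bases, so they are near repeats of one reading rather than independent ones. The first 30 bases of each are given, with the bases they share there in capitals. They lie at chr9:21931190-21931249 and chr9:21931175-21931234, both on the minus strand.
Acp5, first probe: ctttcttgggaacggGCTTTCCTTTCAGTC
Acp5, second probe: GCTTTCCTTTCAGTCaagtcttactgtcac
Dcstamp (first 30 bases, chr15:39592421-39592480, plus strand): tgatattgatggagtcttacctctctgaaa
Ctsk (first 30 bases, chr3:95313165-95313224, plus strand): catttcagtcttccactgagatgcacaaat
Atp6v0d2 (chr4:19805367-19805426, minus strand): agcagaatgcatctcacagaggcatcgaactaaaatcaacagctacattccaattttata
Tcirg1 (chr19:3896678-3896810, minus strand): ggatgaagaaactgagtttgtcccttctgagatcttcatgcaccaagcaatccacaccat
The Tcirg1 stretch spans 133 genomic bases for its 60, so the files place it across a gap in the genome. No annotation of mm9 was used here, so whether a probe lies in coding or untranslated sequence is not given.

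The tissue label was checked against markers first. All 12 osteoblast genes were well above background on each array. Of the osteoclast genes, Acp5, Ctsk, Oscar and Tnfrsf11a were above background on every array, and Calcr and Siglec15 on none. Tnfsf11, which encodes RANKL and is made by other cells, was above background on none either. Runx2 itself had processed signals of 271 at P5, 62.4 in P7 wild type and 262 in Runx2+/-. Its scaled difference between the P7 arrays was -0.46, or 1.37-fold lower in Runx2+/-. In whole suture RNA, a change in the number of cells and a change in RNA per cell cannot be told apart, which holds for every value below. Nor do the arrays show whether the signal of a gene came from osteoclasts or from other cells.

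**Figure D1:**
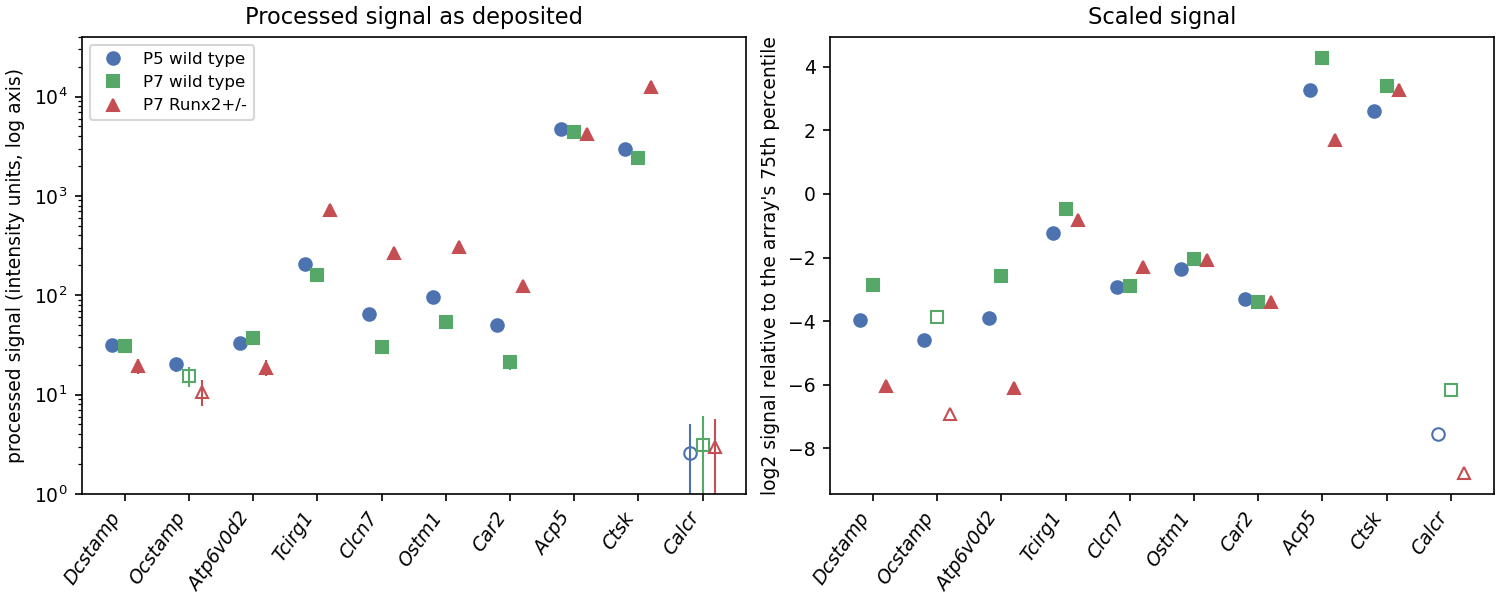
Processed signal as deposited (left, log axis, with the software's error) and scaled log2 signal (right) of the 10 genes on the 3 arrays, each gene by its brightest probe; open symbols are not well above background. Before scaling, Acp5 lies between 4229 and 4683 on all 3 arrays, and after scaling it lies between 1.71 and 4.29.

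Dcstamp and Ocstamp encode the membrane proteins that osteoclast precursors need in order to fuse. Dcstamp had processed signals of 31.4 ± 4.02 at P5, 31.1 ± 4.28 in P7 wild type and 19.6 ± 3.43 in Runx2+/-. Its scaled log2 levels were -3.97, -2.85 and -6.05. Dcstamp was thus lowest on the Runx2+/- array before scaling as well as after it. From P5 to P7 in wild type its scaled level was 2.17-fold higher (log2 difference 1.11, error 0.27). In Runx2+/- at P7 it was 9.16-fold lower than in wild type (-3.20, error 0.32). The Runx2+/- signal was only 1.49 times the lowest signal that counts as well above background on that array, and without scaling the ratio to wild type was 0.629. Ocstamp was above background on the P5 array alone, at 20.1 ± 3.37, and measured 15.4 ± 3.45 and 10.74 ± 3.13 on the wild-type and Runx2+/- P7 arrays. Its age and genotype differences therefore have no order. Against the P5 array it was at least 4.05-fold lower on the Runx2+/- array.

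The proton pump is built from many subunits, and Atp6v0d2 and Tcirg1 are the forms of subunits d and a used on the osteoclast surface. Atp6v0d2, which is also needed for fusion, had processed signals of 33.2 ± 4.35 at P5, 37.5 ± 4.85 in P7 wild type and 18.7 ± 3.46 in Runx2+/-. It was 2.47-fold higher at P7 than at P5 in wild type (1.31, error 0.27). In Runx2+/- it was 11.6-fold lower than in P7 wild type (-3.53, error 0.33). Without scaling the ratio to wild type was 0.499, and as for Dcstamp this is a smaller difference than the scaled one. The Runx2+/- signal stood at 1.43 times the lowest signal called above background. A second Atp6v0d2 probe, at chr4:19804304-19804363, measured 4.56, 4.195 and 2.90 and never passed the background call. The largest genotype difference among the 10 genes therefore comes from 1 probe near the detection limit.

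Tcirg1 followed another course. Its processed signals were 207 ± 21.0 at P5, 161 ± 16.5 in P7 wild type and 725 ± 72.6 in Runx2+/-, well clear of background on all arrays. After scaling it was 1.69-fold higher at P7 than at P5 (0.76, error 0.21) and 1.28-fold lower in Runx2+/- than in P7 wild type (-0.35, error 0.21). Tcirg1 and Atp6v0d2 thus had scaled genotype differences of -0.35 and -3.53, although both encode parts of the same pump. The software's errors do not cover differences between mice or the effect of scaling near the detection limit, where the Atp6v0d2 signal lies. Whether the 2 genes truly part across genotype was not tested.

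Clcn7 encodes the exchanger that moves chloride against protons, Ostm1 its partner subunit and Car2 the cytosolic carbonic anhydrase that makes protons. After scaling, the 3 genes stayed within 2-fold in both comparisons. Clcn7 had processed signals of 65.0 ± 6.94, 30.5 ± 4.20 and 264 ± 26.6 on the P5, P7 wild-type and Runx2+/- arrays. Its age difference was 0.04 (error 0.25), and in Runx2+/- it was 1.51-fold higher than in P7 wild type (0.59, error 0.25), a direction that turned to -0.30 under another background correction (normexp). Ostm1 measured 95.6 ± 9.96, 54.0 ± 6.38 and 305 ± 30.7, which gave 0.30 (error 0.23) for age and -0.03 (error 0.22) for genotype. Its second probe, at chr10:42303788-42303847, never passed it either. Car2 measured 50.05 ± 5.68, 21.5 ± 3.72 and 123 ± 12.6, with unscaled ratios of 0.43 for age and 5.70 for genotype. After scaling, no pair of arrays differed beyond the combined error, with an age difference of -0.09 and a genotype difference of -0.02. Under normexp its genotype difference was -1.07.

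Acp5 encodes tartrate-resistant acid phosphatase, the enzyme whose staining marks osteoclasts. Its brighter probe measured 4683 ± 468 at P5, 4387 ± 439 in P7 wild type and 4229 ± 423 in Runx2+/-, values that lie within the software's error of each other. The scaled levels were 3.25, 4.29 and 1.71, so the whole order among the arrays comes from the scaling, since the scaling values of the arrays differ up to 5.76-fold. Scaled, Acp5 was 2.05-fold higher at P7 than at P5 (1.03, error 0.20) and 5.98-fold lower in Runx2+/- than in P7 wild type (-2.58, error 0.20). The overlapping probe gave 2.24-fold higher with age and 5.99-fold lower with genotype.

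Ctsk encodes cathepsin K, the main collagen-cutting protease of osteoclasts. It measured 2965 ± 297 at P5, 2384 ± 238 in P7 wild type and 12529 ± 1253 in Runx2+/-. Scaled, it was 1.76-fold higher at P7 than at P5 (0.81, error 0.20). Between the P7 genotypes it differed by -0.13 (error 0.20), less than the error, and its sign changed with the scaling, from -0.16 to 0.26 over the alternatives. Ctsk and Acp5, both bright and both secreted osteoclast enzymes, thus had like age differences and unlike genotype differences. Calcr, the calcitonin receptor, measured 2.60, 3.12 and 2.94 and stayed below the well-above-background call throughout, so it has no order.

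**Figure D2:**
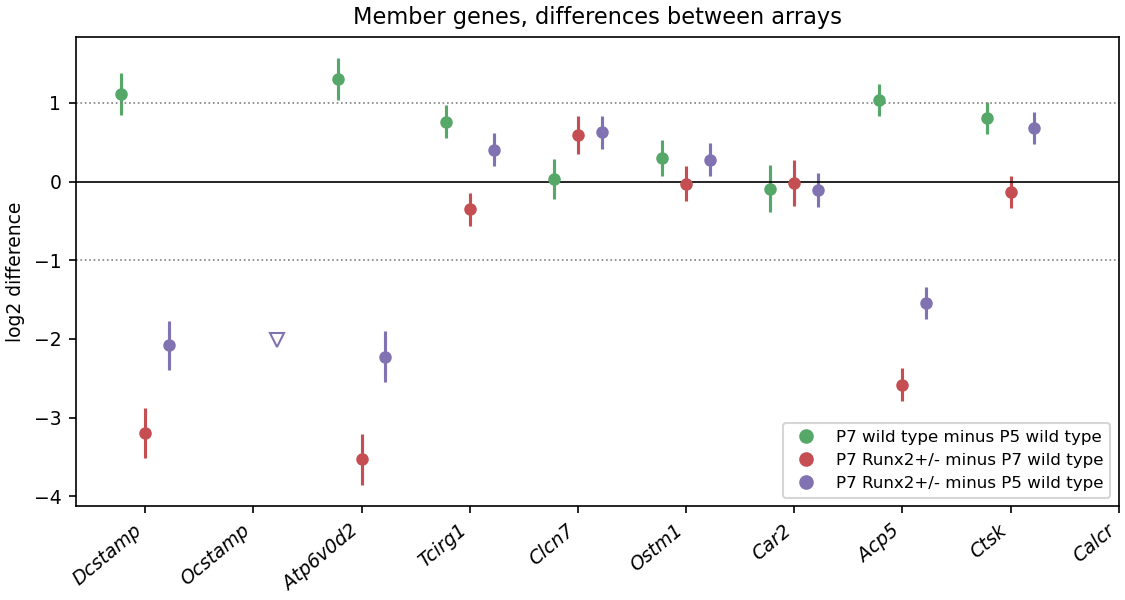
Log2 differences of the scaled signal for each gene (points, brightest probe) with the error combined from the software's errors of both arrays (bars); the open triangle is an upper bound for Ocstamp and dotted lines mark 2-fold. Dcstamp, Atp6v0d2 and Acp5 lie above 1 with age and below -2 with genotype, and the other 5 genes with an order lie between -1 and 1.

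With age, 8 of the 10 genes had an order, and 3 of the 8 were at least 2-fold higher at P7 (Atp6v0d2, Dcstamp and Acp5), where 5.43% of the 14312 genes with an order were. None was at least 2-fold lower, where 3.79% of genes were. Of the 8, 7 lay above 0, with a median of 0.79 against -0.03 over all genes. Ranked among 12866 genes above background on both arrays, 185 genes were further up than Atp6v0d2, 370 than Dcstamp, 468 than Acp5, 903 than Ctsk and 1073 than Tcirg1. The 1609 dimmest of these genes by mean scaled signal include Dcstamp. Of them 14% were at least 2-fold higher and 0.559% lower, and 167 lay above Dcstamp. The lowest scaled level counted as well above background was -5.36 at P5 and -3.99 in P7 wild type. A gene with a mean under -3.99 could thus enter only if higher at P7, so that share is no measure of how dim genes differ. The age call of Acp5 is close to the threshold: with normexp it was 0.90 and that of Dcstamp 0.89, which left Atp6v0d2 as the one gene at 2-fold.

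With genotype, 3 of 8 genes with an order were at least 2-fold lower in Runx2+/- (Atp6v0d2, Dcstamp and Acp5), where 15% of 14191 genes were. None was at least 2-fold higher, where 3.79% of genes were. The median of the 8 was -0.24 against 0.06 over all genes, and the other 5 of the 8 lay within 2-fold. Among 12908 genes above background on both P7 arrays, 17 genes lay lower than Atp6v0d2, 39 lower than Dcstamp and 147 lower than Acp5. The age and genotype comparisons share the P7 wild-type array, and a gene that reads high on it moves up in one and down in the other. The third comparison does not use it: Runx2+/- at P7 against wild type at P5, which differ in age as well as genotype.

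In that comparison Atp6v0d2 was 4.68-fold lower (-2.23, error 0.33), Dcstamp 4.23-fold lower (-2.08, error 0.31) and Acp5 2.92-fold lower (-1.54, error 0.20). With Ocstamp, 4 of 9 genes were at least 2-fold lower, where 18.6% of 17943 genes were, and none was at least 2-fold higher, where 5.67% were. Ctsk was 1.60-fold higher on the Runx2+/- array (0.68, error 0.20), Clcn7 1.55-fold higher (0.63, error 0.21) and Tcirg1 1.33-fold higher (0.41, error 0.21). The median of the 9 genes was -0.11.

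Dcstamp and Atp6v0d2 are among the dimmest genes with an order. Genes above background on both P7 arrays were split into 8 equal groups by mean scaled signal. In the dimmest group, of 1614 genes, the median genotype difference was -0.71 and 38.9% were at least 2-fold lower. The filter largely fixes that direction: the lowest scaled level counted as well above background was -3.99 in P7 wild type and -6.63 in Runx2+/-, so a gene whose mean lies under -3.99, as for Dcstamp and Atp6v0d2, could enter only if it was lower in Runx2+/-. The group is therefore no measure of how dim genes differ. Within this group 8 genes lay lower than Atp6v0d2 and 19 lower than Dcstamp, ranks shaped by the same limits, so nothing is read from them. Car2, in the same group, was at -0.02. Its scaled levels of -3.38 in P7 wild type and -3.40 in Runx2+/- lay above both limits, so the filter did not fix its direction. Acp5 and Ctsk belong to the brightest group, where the median was -0.19 and 18.1% were at least 2-fold lower. There, 3 of 1614 genes lay lower than Acp5. The part that low signal has in the values of Dcstamp and Atp6v0d2 was not tested.

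**Figure D3:**
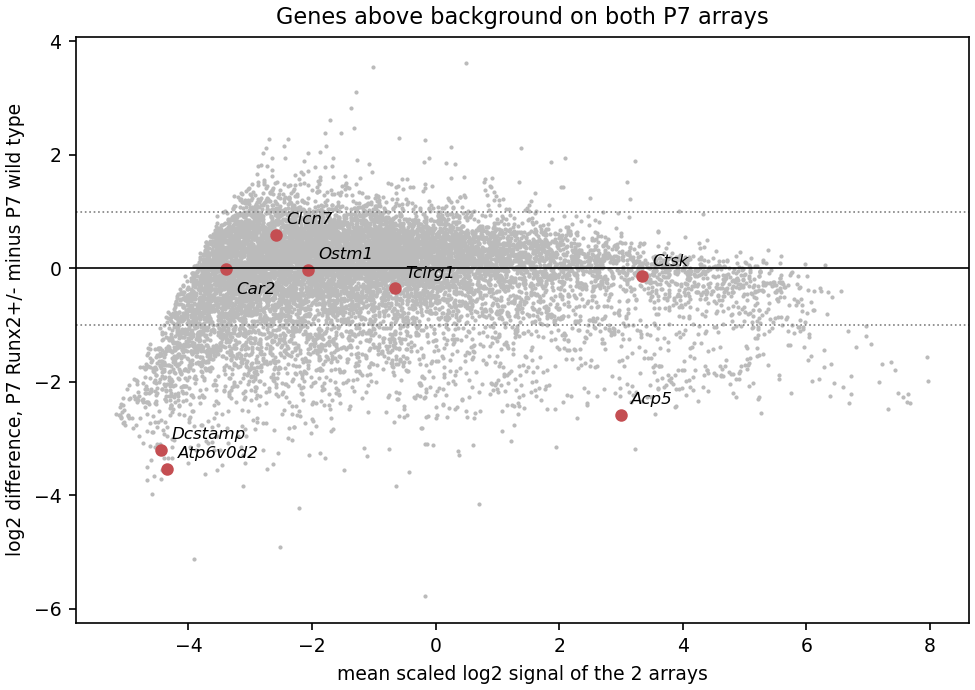
Log2 difference between the P7 arrays (Runx2+/- minus wild type, vertical axis) against the mean scaled log2 signal of both arrays (horizontal axis), for the 12908 genes above background on both (grey) and the 8 genes with an order (red); dotted lines mark 2-fold. Dcstamp and Atp6v0d2 lie at the dim edge, where the unequal detection limits let in only genes lower in Runx2+/-, and Acp5 lies at -2.58 among bright genes.

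Other genes of the same machinery were read from lists, whose counts stand beside the shares over all genes with an order. Those were 15% at least 2-fold lower and 3.79% higher with genotype, and 3.79% lower and 5.43% higher with age. Of 20 other V-ATPase subunits, 16 had an order with genotype, none was at least 2-fold higher and 1 was at least 2-fold lower, Atp6v1g2, a form known from neurons (-1.24, age 0.38). Their median was 0.04 with genotype and 0.28 with age, and none passed 2-fold with age. Atp6v0d1, the widely expressed counterpart of Atp6v0d2, was at 0.14 with genotype and 0.51 with age (it was singled out after its values were seen). Of 17 other Clc transporters, carbonic anhydrases and the bicarbonate exchanger Slc4a2, 8 had an order with genotype and 4 were at least 2-fold lower: Car4 (-2.13, age 0.91), Car7 (-1.77, age -0.44), Slc4a2 (-1.31, age 1.34) and Car3 (-1.07, age -0.12). Slc4a2, which exports the bicarbonate left behind by proton secretion in osteoclasts, was the one gene of this list at least 2-fold higher with age.

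Of 23 genes of osteoclast identity and signalling, 19 had an order with genotype, with a median of -0.31. The collagen receptor gene Oscar (-1.52, age 0.41), the RANKL receptor gene Tnfrsf11a (-1.37, age 0.39) and the transcription factor gene Mitf (-1.10, age 0.24) were at least 2-fold lower, although a second Mitf probe gave -0.33. These 3 of 19 are near the 15% of all genes with an order that were, so the count sets the list apart in no way. The metalloprotease gene Adam8 was at least 2-fold higher, by a bound of 1.09. With age, 1 of 19 genes with an order passed 2-fold, Adam8, lower by a bound of -2.04. Of 14 other proteases, the collagenase Mmp13 (-2.83, age 1.20) and the gelatinase Mmp9 (-2.82, age 0.66) were lower and cathepsin L, Ctsl, was higher (1.52, age -0.17). Their median was -0.03. Among 16 lysosomal genes with an order the median was 0.35, and 1, the regulator Tfeb, was at least 2-fold lower (-1.14, age 0.97).

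Genes of other cells moved between the same arrays. The macrophage list, the osteoclast's own lineage, had 11 of 13 genes with an order and a median of 0.37, with Lyz2 (1.95, age -2.34) and Mrc1 (1.26, age 0.08) higher in Runx2+/- and Cd68 (-1.18, age 1.14) lower. Its summed scaled signal was 5.65 at P5, 5.25 in P7 wild type and 6.10 in Runx2+/-, in multiples of the array's 75th percentile, and Cd163 was above background on no array. The summed signal of the 12 osteoblast genes was 437, 638 and 153, and 10 of 12 were at least 2-fold lower in Runx2+/- (median -2.08), among them Dlx5 (-3.08, age 0.54) and Bglap2 (-2.57, age 0.68). For 10 neutrophil genes the sums were 97.1, 8.03 and 34.1, with 6 at least 2-fold higher in Runx2+/- and 1, Elane (-1.21, age 0.67), lower. With age, 8 of them were at least 2-fold lower. Both sums follow mainly their brightest gene. Col1a2, at scaled log2 levels of 8.41, 8.96 and 6.98, gave most of the osteoblast sum. S100a9, at 5.91, 2.27 and 4.17, gave most of the neutrophil sum. The medians with genotype were -0.74 for 5 erythroid genes, -0.29 for 8 fibroblast genes and -1.02 for 6 neural and glial genes. The part of these cells in the values of the 10 osteoclast genes was not tested. The 10 reference genes had medians of -0.37 with age and 0.27 with genotype, and none passed 2-fold with genotype. With age all 10 lay below 0, and 1 was at least 2-fold lower (-1.16), although another probe of that gene gave 0.91.

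**Figure D4:**
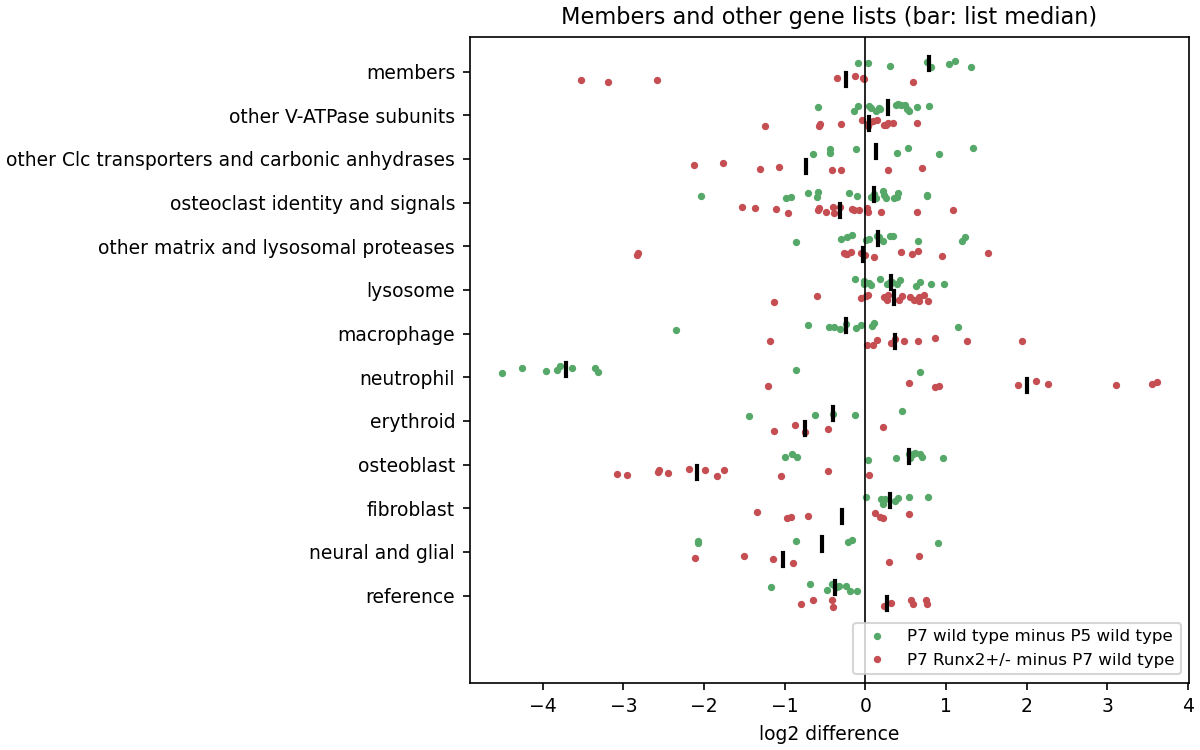
Log2 differences of the 10 osteoclast genes (row "members") and of 12 other gene lists, with age (green) and genotype (red), for genes with an order or a bound; black bars are list medians. The 3 lowest members with genotype lie apart from the other 5, and the V-ATPase and lysosome lists centre at 0.04 and 0.35.

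Acp5 was also compared with the 12831 genes above background on all 3 arrays, by the distance between their pairs of age and genotype differences. The unscaled ratios of Acp5 were 0.937 with age and 0.964 with genotype, so its pair of differences comes almost wholly from the scaling. Genes near it are thus those with similarly flat processed signals, and no other likeness is read from the distance. Within 0.25 log2 of it lay 23 genes. Among the nearest 5 were Gm10814 (distance 0.05), Galns (0.10), Srgap2 (0.10) and Timmdc1 (0.12). Gm10814 was near the detection limit on both P7 arrays, at scaled levels of -3.65 and -6.28 against limits of -3.99 and -6.63. Galns, a lysosomal sulfatase gene, was at 0.95 with age and -2.62 with genotype, and Srgap2 at 1.09 and -2.49.

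**Figure D5:**
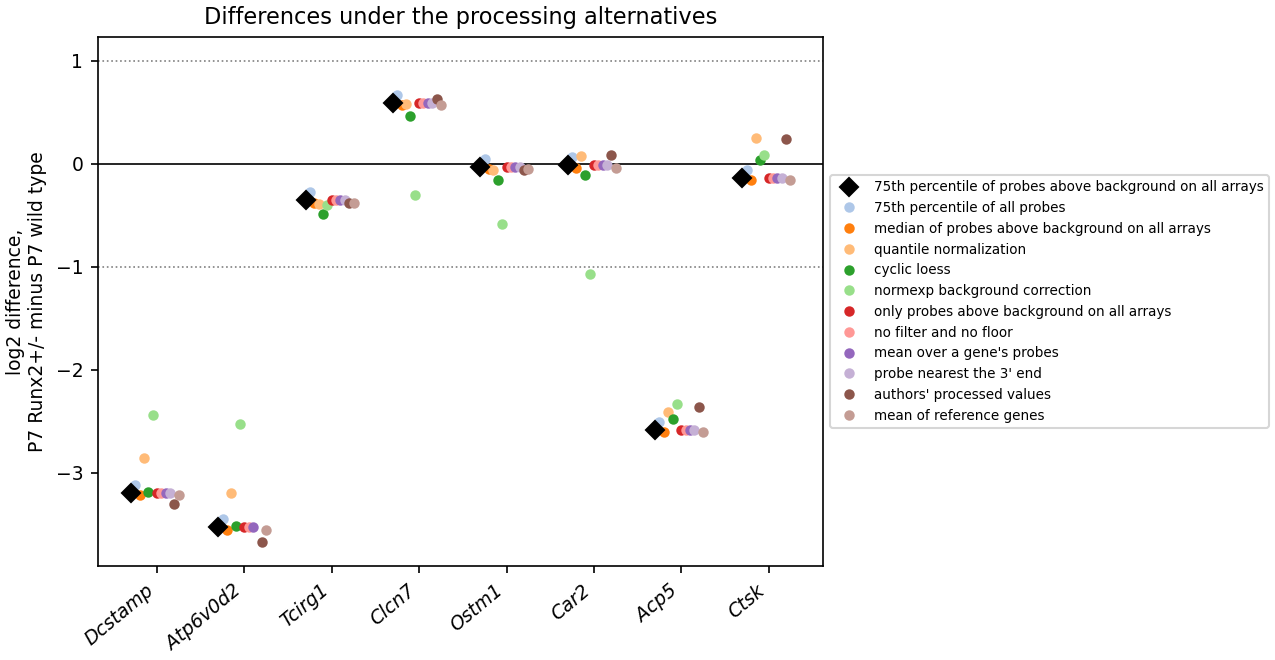
Genotype differences (log2, Runx2+/- minus wild type at P7) of the 8 genes with an order under the scaling used here (black diamonds) and under the processing alternatives (coloured points). Acp5, Atp6v0d2 and Dcstamp lie below -2 under each alternative in which they have an order, and the other 5 genes lie between -1.07 and 0.67. All alternatives use arrays scaled to each other, so the narrow range of Acp5 is no measure of stability.

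Over the alternatives run, the genotype difference of Acp5 lay between -2.60 and -2.33, that of Atp6v0d2 between -3.67 and -2.53 and that of Dcstamp between -3.30 and -2.44. All of them use arrays scaled to each other, and the unscaled genotype ratio of Acp5 was 0.964. Its narrow range therefore comes from the scaling that they share and is no measure of stability. Read by the probe nearest the 3′ end, which is the one below background, Atp6v0d2 has no order. Tcirg1 lay between -0.49 and -0.27, Ostm1 between -0.58 and 0.05 and Car2 between -1.07 and 0.08. With age, Acp5 lay between 0.90 and 1.49, Atp6v0d2 between 1.04 and 1.76, Dcstamp between 0.89 and 1.57, Ctsk between 0.61 and 1.27 and Tcirg1 between 0.70 and 1.22.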

How the data were processed

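Suture total RNA was amplified and Cy3-labelled for 3 Agilent arrays, 1 per group, which lay on the same slide and scan. The file headers give Agilent Feature Extraction 10.7.1.1 as the image software, while the submitters' processing notes give 9.5.1.1. The authors deposited processed signals, an intensity corrected for background, per the file headers. A deposited table of the authors' processed intensity values, with a median of 12.587 in each column on a scale that its source does not state, served only as an alternative.

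Without control and outlier spots, and with the repeat spots of a probe averaged, 55680 probes remained. Log2 values were centred on each array's 75th percentile of probes well above background on all arrays, because under 50% of probes were detected on each. Probes were named through RefSeq for 27324 probes, 2878 with a newer symbol. A gene was read by its brightest probe. A gene below background on one array has a bound, and one below on both, or whose bound shows no direction, has no order. Counts are of differences of 2-fold or more. Python 3.11.15, numpy 2.4.6, pandas 2.3.3, R 4.3.3 and limma 3.58.1 were used, and the steps were tested on simulated data. The simulated arrays had equal shares of probes above background, so that test does not cover the unequal detection limits of these arrays.

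The 10 members and the 12 other lists were chosen with earlier results of these data known. Named are all members, Runx2, up to 3 genes per list and direction with the largest genotype difference of at least 2-fold, and the genes nearest to Acp5; of those last, 1 known only by its position is not named. Members are labelled by current symbols, and genes named beyond this rule in marker checks and summed signals were chosen after their values were seen.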

Additional observations from a re-analysis of the deposited data

How the results depend on the processing

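There were 13 alternatives, of which scaling to the mean of the reference genes was added after the data were seen. The count of genes at least 2-fold higher with age, 3 as reported, was 1 with normexp background correction, 5 with a 1.5-fold threshold, 0 with a 3-fold threshold and 5 with scaling to the reference genes, which also moved the age median from 0.79 to 1.24. With genotype, the count of genes higher was 1 at 1.5-fold in place of 0. The count lower was 5 in place of 3 with no filter and no floor, where Ocstamp and Calcr, below background on both P7 arrays, were counted at their measured values. The genotype median, -0.24, became -0.83 with normexp and -1.47 with no filter and no floor. With no filter, the values of the other 8 genes were unchanged, so that median moved only because Ocstamp and Calcr were added. Their unscaled genotype ratios were 0.697 and 0.943, so their scaled differences come mostly from the scaling. The cause of the move with normexp was not tested. These settings moved the median of all genes as well: normexp to 0.26 with age and -0.42 with genotype, no filter to 0.46 and -0.92, and the reference genes to 0.45 with age. Of all calls at 2-fold, 58.9% were higher with age, against 79.9% with normexp, 93.2% with the reference genes and 88.8% with no filter. With genotype 20.2% were higher, against 2.73% with normexp and 7.64% with no filter. Of the single-gene values under alternatives, 72 of age stayed within the spot error and 15 moved beyond it, and 75 of genotype stayed and 12 moved. Some of those that stayed could not move. The 8 genes were above background on every array, so requiring that, or dropping filter and floor, returned the same values. For every gene but Acp5, the mean over probes did so too, as did the 3′ probe except where Atp6v0d2 had no order. The counts are therefore no measure of stability. Leaving out a replicate was not possible with 1 array per group. Signal over background limits Calcr most: on the Runx2+/- array it stood at 0.225 times the lowest signal called above background, followed by Ocstamp at 0.82, Atp6v0d2 at 1.43 and Dcstamp at 1.49.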
